A study of Rattus norvegicus with 10 samples.

Results

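The genes described here are those of the rat major histocompatibility complex (MHC), called RT1, and of antigen presentation, as measured in the hippocampus of rats given solid or powdered feed. Members were all probe sets of the array annotated with exactly 1 gene symbol that starts with RT1-, or that is B2m, Tap1, Tap2, Tapbp, Cd74, Ciita, Psmb8, Psmb9, Psmb10, Psme1, Psme2 or Nlrc5. This gave 47 of 31042 probe sets, which named 30 of the 14217 genes on the array that have a probe set of their own, and 31 of the 47 belonged to 18 RT1 genes. Another 6 probe sets with an RT1 symbol carried several symbols and were not members. The 10 arrays were from male Wistar rats, labeled as 4 weeks old, of which 5 had taken solid chow (C-group) and 5 powdered chow (P-group) for 8 days. All rats of both groups had first been acclimated to powdered feed, and each array held the hippocampus of 1 rat. Rats are named by their group and replicate number, C1 to C5 and P1 to P5. The deposited values are log2 expression values that the authors summarized per probe set with qFARMS, a factor model that returns nearly the same value for every array where the probes of a set do not vary together.

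MHC class I molecules are formed by a heavy chain and the light chain beta-2-microglobulin, encoded by B2m, and show peptides from the cytosol on the cell surface. These peptides are cut by the proteasome, of which the immunoproteasome is a form with exchanged subunits, and are carried into the endoplasmic reticulum by the transporter that Tap1 and Tap2 encode. Class II molecules show peptides from endosomes and are assembled on the invariant chain, the product of Cd74. In the healthy brain, class II is largely a matter of microglia and of cells at its borders, whereas class I transcripts are also found in neurons. RT1 genes are polymorphic, and Wistar rats are an outbred stock, so rats can carry different alleles.

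Of the 47 member probe sets, 10 had a standard deviation (SD) above 0.01 over the 10 rats (21.3%), against 2904 of all 31042 probe sets (9.36%). Each of these 10 named a different gene: the class I genes RT1-A, RT1-CE16, RT1-N2, RT1-S3, RT1-T24-3 and RT1-T24-4, the class II gene RT1-Bb, B2m, and the proteasome activator genes Psme1 and Psme2. Their SDs ran from 0.11 to 0.58 log2 units. The other 37 probe sets had SDs of at most 0.00056, so no member lay close to the threshold. After a further quantile normalization 14 members passed it, the same 10 and 4 others at SDs of at most 0.0107, against 20.6% of all probe sets. The mean of these 37 ranged from 5.36 to 8.95, and their C-group and P-group means differed by at most 0.00058 log2 units. Values this close together say little on whether rats differed, and 20 of the 30 genes had no other probe set.

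**Figure D1:**
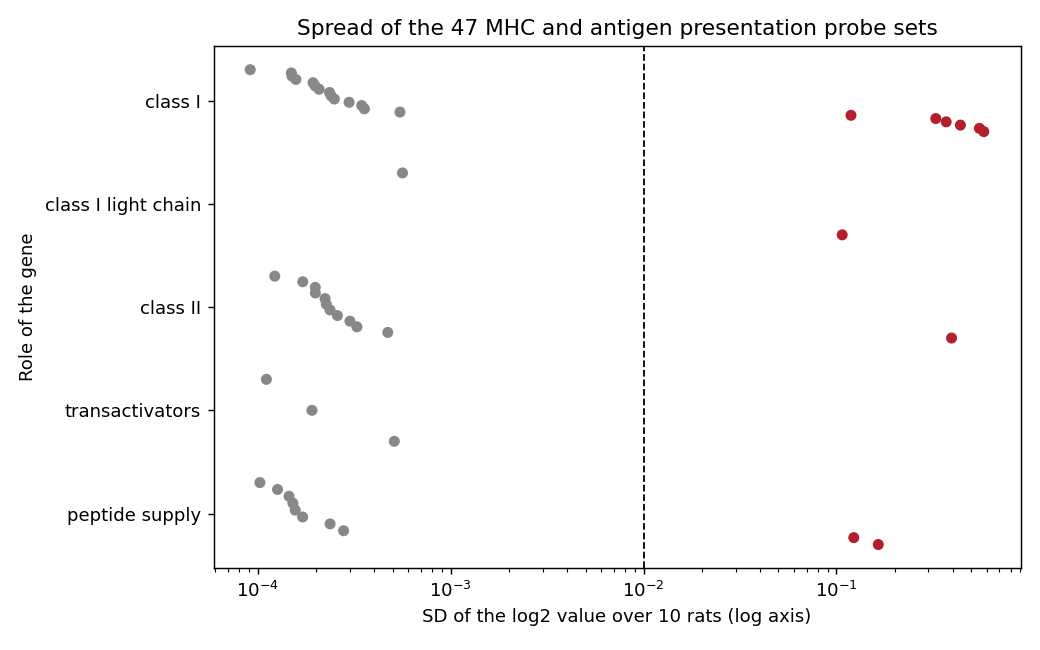
SD of each of the 47 member probe sets over the 10 rats, on a log axis in log2 units, by role of the gene. Red points are the 10 probe sets above the dashed line at an SD of 0.01, and grey points are the 37 others, which all lie at or below 0.00056.

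The constant members covered most of the class II pathway and of peptide supply. Of 12 class II probe sets, 11 were constant, among them all 4 of RT1-Ba, the single one of RT1-Da and that of Cd74 at 6.97. The single probe sets of RT1-DMa and RT1-DMb, whose products load peptide onto class II, were constant too. Both probe sets of Ciita, which encodes the master regulator of class II transcription, stayed at 7.44 and 5.95, and Nlrc5, which encodes the corresponding regulator of class I, at 5.88. The immunoproteasome subunit genes Psmb8, Psmb9 and Psmb10 stayed at 6.55, 6.76 and 7.99, Tap2 at 6.75, and Tapbp, the gene of the tapasin chaperone that links class I to the transporter, at 6.74. Both probe sets of Tap1 were constant as well. Of the class I genes, RT1-A3, RT1-CE5, RT1-CE10, RT1-CE12, RT1-M3-1 and RT1-N3 had constant probe sets only. Levels of different probe sets are not comparable with each other, because their probes bind with different strength.

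The clearest pattern among the variable members was a set of 4 rats, C5, P1, P3 and P5, that were the 4 highest in RT1-CE16 and the 4 lowest in 4 of the 6 other variable RT1 probe sets. RT1-CE16 (probe set 1370463_x_at), a class I heavy chain gene, was 6.50, 6.38, 6.32, 6.14 and 7.30 in C1 to C5 and 7.10, 6.32, 7.29, 6.09 and 7.73 in P1 to P5. Thus C5, P1, P3 and P5 held the 4 highest values and P5 the highest of all. In RT1-T24-4 (1389734_x_at) and RT1-T24-3 (1388694_at), class I genes of a group for which RefSeq lists the mouse name H2-T24, the same 4 rats held the lowest values. RT1-T24-4 was 8.16, 7.79, 7.88, 7.73 and 7.37 in the C-group and 7.12, 8.01, 7.51, 7.90 and 6.28 in the P-group. RT1-T24-3 was 7.70, 7.53, 7.46, 7.48 and 7.00 in the C-group and 6.91, 7.39, 6.89, 7.43 and 6.24 in the P-group. Both had P5 as the lowest rat, by 0.83 log2 units for RT1-T24-4 and 0.65 for RT1-T24-3.

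RT1-N2 (1387839_at), a class Ib gene, was 6.71, 6.56, 6.70, 6.76 and 6.39 in C1 to C5 and 6.32, 6.73, 6.39, 6.78 and 5.55 in P1 to P5. RT1-A (1370429_at), named for the classical class I locus, was 6.89, 6.67, 6.98, 6.79 and 6.63 in the C-group and 6.43, 6.86, 6.39, 7.07 and 5.99 in the P-group. In both, C5, P1, P3 and P5 were again the 4 lowest rats, with P5 0.77 and 0.40 log2 units below the next. In RT1-A, C5 at 6.63 lay next to C2 at 6.67, so these 4 rats were not separated from the others. RT1-Bb (1371033_at), which encodes the beta chain of the class II molecule RT1.B, was 5.71, 6.28, 5.72, 5.64 and 6.51 in the C-group and 5.94, 5.72, 6.43, 5.73 and 6.67 in the P-group. Here P5, C5, P3 and C2 were the highest rats and P1 came next. RT1-S3 (1388212_a_at), a class Ib gene for which RefSeq lists the mouse name H2-T23, was 6.84, 6.83, 6.89, 6.86 and 7.14 in the C-group and 6.91, 6.93, 7.08, 6.90 and 7.13 in the P-group. It was high in C5, P5 and P3 only, and the spread over all 10 rats was small. The other probe sets of RT1-S3 (1371123_x_at, 1388164_at and 1388213_a_at) and of RT1-Bb (1371065_at) were constant. Within their narrow ranges, each of those of RT1-S3 also had C5, P3 and P5 as its highest rats. In that of RT1-Bb, P5 and C5 were among the lowest.

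The set of 4 rats was read from RT1-CE16, so that probe set is left out of the count. Of the other 2903 variable probe sets of the array, 22 (0.758%) had C5, P1, P3 and P5 as their 4 highest or 4 lowest rats, and 4 of these 22 were RT1-A, RT1-N2, RT1-T24-3 and RT1-T24-4. The other 18 were Pfdn6, which also lies on chromosome 20, 10 genes on other chromosomes, among them Thy1, Gpd1, Hspd1 and Itpr1, and 7 probe sets without a symbol. Constant probe sets were not counted. Among the constant members, RT1-CE10 (1388203_x_at, 6.65565 to 6.65655) and RT1-S3 (1371123_x_at, 6.74267 to 6.7433) also had these 4 rats highest, within these narrow ranges. The other constant members did not have them as the 4 highest or lowest. P5 was the highest or lowest of the 10 rats in 6 of the 7 variable RT1 probe sets, against 514 of 2904 variable probe sets (17.7%). These counts describe the same 10 arrays from which the pattern was read and were not tested. Probe sets whose names end in _x_at can hold probes that match other transcripts, and class I genes are close to each other in sequence, so the assignment of RT1-CE16 and RT1-T24-4 to single genes is uncertain. In RefSeq the gene models of RT1-T24-3 and RT1-T24-4 also overlap. A value depends on the amount of transcript and on how well its sequence matches the probes, and in tissue RNA fewer cells of a type and less RNA per cell cannot be told apart either.

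**Figure D2:**
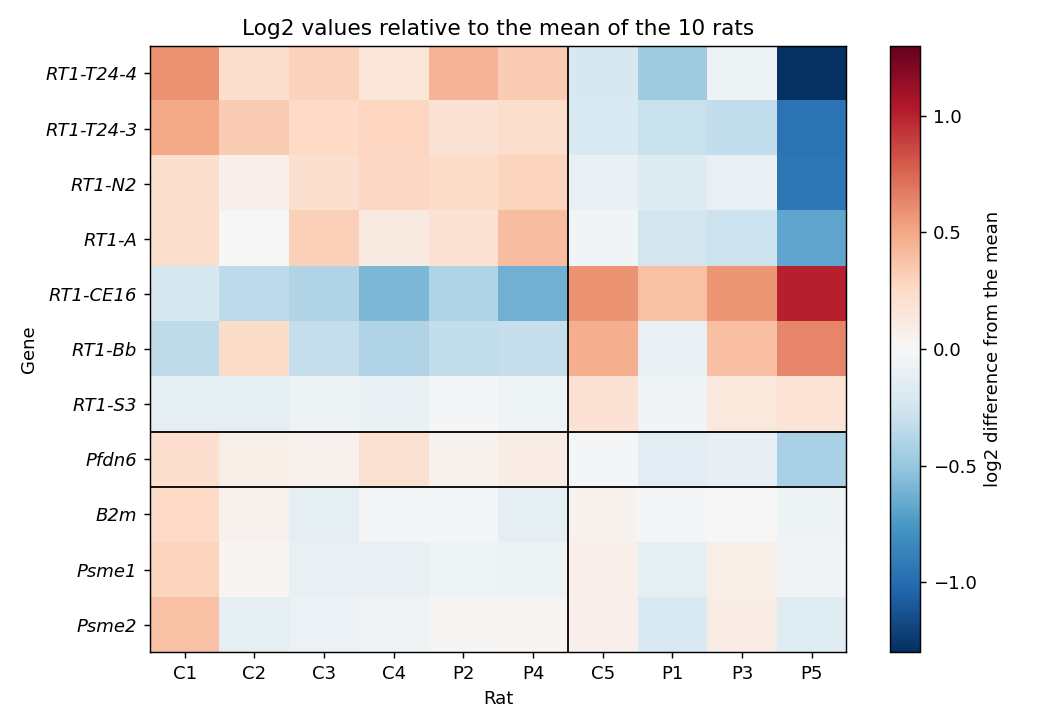
Log2 value of each variable member and of Pfdn6 relative to its mean over the 10 rats. Columns are rats, with C5, P1, P3 and P5 to the right of the vertical line, with values over the mean in red and values under it in blue. P5 is the darkest blue column for RT1-T24-4, RT1-T24-3, RT1-N2 and RT1-A and the darkest red for RT1-CE16 and RT1-Bb, and B2m, Psme1 and Psme2 are reddest in C1.

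Whether the variable members fell into 2 separate levels was examined. A probe set was described as having 2 levels when the widest gap between neighboring rats was at least 0.5 log2 units, was wider than the range of the rats on each side, and left at least 2 rats on each side. None of the 10 variable members met this, against 34 of 2904 variable probe sets (1.17%). RT1-CE16 came nearest, with 6 rats between 6.09 and 6.50, 4 between 7.10 and 7.73, and a gap of 0.60 log2 units beside a range of 0.63 in the upper 4. In RT1-Bb the widest gap was 0.34, between C2 and P1, and 5 rats lay between 5.64 and 5.73. In RT1-A, RT1-N2, RT1-T24-3 and RT1-T24-4 the widest gap set P5 apart from the other 9 rats. Without P1, RT1-CE16 and RT1-Bb met the rule, and RT1-CE16 also met it without C1 or P5.

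The sequences in front of these genes are shown for the RT1 genes that had these 4 rats at an extreme and had an entry, and for B2m, which did not. Each is the RefSeq sequence of assembly GRCr8, from 250 bases before the annotated start of the gene to 50 after it, written 5' to 3' on the strand of the gene. The assembly is of the BN strain, not of the rats studied. Capitals mark 4 motifs searched on both strands: AANNGAAA, the core bound by interferon regulatory factors, GGGATTCC, the core of the kappa-B element of class I promoters, TGACG, a half-site of the cyclic AMP response element, and CCAAT, the Y box. No marked motifs overlap in the 5 sequences.
RT1-CE16 (chr20:3265394-3265693, reverse strand): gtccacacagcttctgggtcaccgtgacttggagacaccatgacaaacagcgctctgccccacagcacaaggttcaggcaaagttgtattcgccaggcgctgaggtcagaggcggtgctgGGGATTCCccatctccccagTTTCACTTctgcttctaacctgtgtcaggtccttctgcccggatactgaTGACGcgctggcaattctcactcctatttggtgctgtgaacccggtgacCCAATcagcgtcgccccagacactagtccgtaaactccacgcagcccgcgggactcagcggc
RT1-N2 (chr20:2646080-2646379, forward strand): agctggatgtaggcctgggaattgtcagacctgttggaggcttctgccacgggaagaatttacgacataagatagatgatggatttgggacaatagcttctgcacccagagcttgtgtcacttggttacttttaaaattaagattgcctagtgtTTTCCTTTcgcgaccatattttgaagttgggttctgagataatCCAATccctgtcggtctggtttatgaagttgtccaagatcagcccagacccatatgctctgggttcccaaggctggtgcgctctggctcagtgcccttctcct
RT1-T24-3 (chr20:2722875-2723174, forward strand): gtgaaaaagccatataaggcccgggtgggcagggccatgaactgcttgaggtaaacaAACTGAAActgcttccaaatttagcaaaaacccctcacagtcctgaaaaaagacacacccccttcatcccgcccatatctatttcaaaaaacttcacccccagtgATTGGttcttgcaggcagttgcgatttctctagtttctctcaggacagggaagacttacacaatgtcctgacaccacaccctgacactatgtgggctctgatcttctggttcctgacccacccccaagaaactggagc
RT1-T24-4 (chr20:2689083-2689382, forward strand): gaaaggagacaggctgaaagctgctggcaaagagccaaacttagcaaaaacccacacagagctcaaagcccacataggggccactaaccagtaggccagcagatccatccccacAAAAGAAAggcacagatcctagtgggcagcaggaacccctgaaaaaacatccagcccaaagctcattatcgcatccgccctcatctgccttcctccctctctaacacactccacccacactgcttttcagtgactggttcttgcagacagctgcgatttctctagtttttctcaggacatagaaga
B2m (chr3:129549080-129549379, forward strand): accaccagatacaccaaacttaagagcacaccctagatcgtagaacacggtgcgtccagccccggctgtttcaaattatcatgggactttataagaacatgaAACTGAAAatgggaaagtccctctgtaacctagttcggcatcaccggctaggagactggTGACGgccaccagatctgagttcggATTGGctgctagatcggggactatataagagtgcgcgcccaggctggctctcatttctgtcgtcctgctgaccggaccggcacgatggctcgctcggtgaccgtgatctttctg

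RT1-CE16 held all 4 motifs, starting 130 (kappa-B), 110 (interferon regulatory factor), 61 (half-site) and 12 (Y box) bases before the start. RT1-N2 and RT1-T24-3 held the interferon regulatory factor core and the Y box, RT1-T24-4 the former alone, and B2m all but the kappa-B core. The longest run of bases shared by the windows of RT1-T24-3 and RT1-T24-4 was 17. Of the 30 member genes, 26 had an entry. The interferon regulatory factor core was found in all 11 class I entries and in 1 of 6 class II entries, against 26.4% of all 33469 windows. The Y box was found in 9 of 11 class I and in all 6 class II entries, against 37.5% of all windows, and the half-site in 4 of 11 and 1 of 6, against 21.2%. The kappa-B core occurred in RT1-CE16, RT1-CE10 and RT1-A3, against 1.23% of all windows. A match is a run of letters and not a shown binding site.

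B2m, Psme1 and Psme2, which encode the class I light chain and the subunits of the proteasome activator PA28, followed another order of rats. B2m (1367595_s_at) was 11.65, 11.45, 11.27, 11.37 and 11.43 in C1 to C5 and 11.37, 11.37, 11.40, 11.28 and 11.32 in P1 to P5. Psme1 (1367663_at) was 9.40, 9.14, 9.02, 9.01 and 9.18 in the C-group and 8.99, 9.06, 9.18, 9.04 and 9.08 in the P-group. Psme2 (1367710_at) was 8.58, 8.09, 8.13, 8.16 and 8.27 in the C-group and 8.00, 8.21, 8.30, 8.23 and 8.05 in the P-group. C1 was the highest rat in all 3 genes, by 0.20 log2 units for B2m, 0.22 for Psme1 and 0.28 for Psme2. The other 9 rats spanned 0.17, 0.19 and 0.30 log2 units. C1 was the highest rat in 5 of the 10 variable members, close to the 53.5% of all variable probe sets (1553 of 2904). A second probe set of B2m and one of Psme1 were constant.

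C1 also lay at an extreme in the mean of each marker list with variable probe sets. The mean of 9 variable probe sets of choroid plexus markers ran from 6.26 to 8.93 in the C-group, with C1 highest, and from 6.07 to 8.44 in the P-group. C1 was the highest rat in 7 of the 9, the exceptions being Ttr, highest in C5, and F5, highest in C2. The mean of 5 microglial probe sets (P2ry12, Tmem119, C1qa and C1qc) was 8.43 in C1, 7.83 to 8.10 in C2 to C5 and 7.99 to 8.14 in the P-group, and all but C1qc were highest in C1. The mean of 4 astrocyte probe sets was also highest in C1, at 10.13, although Gfap was lowest there. The mean of 8 probe sets of hippocampal neurons was lowest in C1, at 9.22, in a range up to 9.63 in the C-group and beside 9.34 to 9.58 in the P-group. C1 was the lowest rat in 3 of these 8 probe sets and the highest in 1, that of Crym. The leukocyte markers were split, since Lyz2, a myeloid gene, was highest in C1 at 9.46 and both variable probe sets of the T cell gene Cd3e were lowest in C1, at 6.01 and 5.89. The part of these cells in the values of B2m, Psme1 and Psme2 was not tested.

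Rats C5, P1, P3 and P5 did not share one choroid plexus level, with means of 8.48, 6.07, 8.44 and 7.61, and their microglial means were 7.99 to 8.14. Against 2.01% of all probe sets, rank products called higher in the C-group 9 of 12 choroid plexus probe sets and 3 of 13 astrocyte ones (Aqp4, Gja1 and Slc1a3). Against 0.409%, it called lower 1 of 13 neuronal probe sets, that of Neurod6, at -0.25 log2 units (standard error 0.15). Neurod6 was 9.82 in C2 and 10.4 to 10.7 in the other rats, and its difference was not computed without C2. Rank products called none of the microglial, leukocyte or endothelial ones, and none of 12 endothelial probe sets was variable. The part of these cells in the RT1 values was not tested. All 8 neuronal marker genes of the hippocampus were measured, and 6 of them had a variable probe set.

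**Figure D3:**
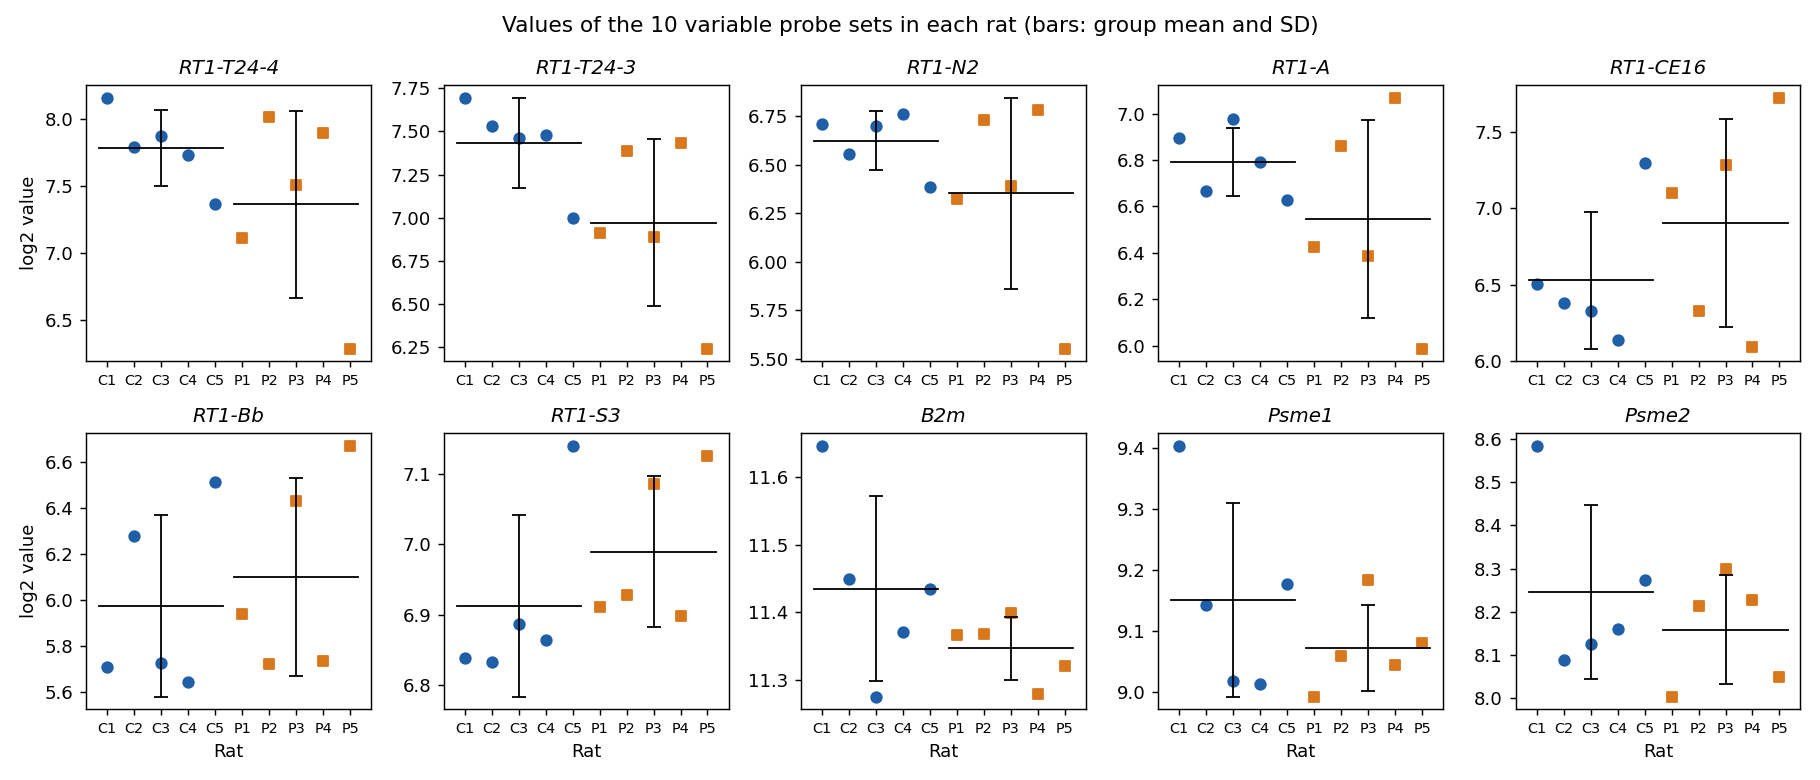
Log2 values of the 10 variable members in each rat. Blue circles are the C-group and orange squares the P-group, and the bars in black give mean and SD of each group (n = 5 rats each). The groups overlap in every panel, P5 is lowest for RT1-T24-4, RT1-T24-3, RT1-N2 and RT1-A, and C1 is highest for B2m, Psme1 and Psme2.

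The comparison of the diets asks which hippocampal transcripts differ with chewing of solid feed. By rank products, which the study used, at a false discovery rate (FDR) under 0.05, 4 of the 47 members were called higher in the C-group, against 2.01% of all probe sets, and 1 was called lower, against 0.409%. The C-group had 7.43 ± 0.26 for RT1-T24-3 and the P-group 6.97 ± 0.48 (mean ± SD, 5 rats each), so the means lay 0.46 log2 units apart (standard error 0.24) at an FDR of 0.00333. RT1-T24-4 was 7.79 ± 0.29 and 7.36 ± 0.70, a difference of 0.42 (standard error 0.33, FDR 0.00303). RT1-N2 was 6.62 ± 0.15 and 6.35 ± 0.49, a difference of 0.27 (standard error 0.22, FDR 0.0270). RT1-A was 6.79 ± 0.15 and 6.55 ± 0.43, a difference of 0.25 (standard error 0.20, FDR 0.0112). RT1-CE16 was called lower, with 6.53 ± 0.45 against 6.91 ± 0.68 and a difference of -0.38 (standard error 0.36, FDR 0.0142). These 5 are the probe sets in which C5, P1, P3 and P5 were the 4 highest or lowest rats, and 1 of those rats was in the C-group and 3 were in the P-group.

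The other variable members were not called. RT1-Bb differed by -0.13 log2 units (standard error 0.25, FDR 0.0548 for lower) and RT1-S3 by -0.08 (standard error 0.07, FDR 0.0718 for lower). B2m, Psme1 and Psme2 differed by 0.09, 0.08 and 0.09 (standard errors 0.06, 0.08 and 0.10, FDR 0.125, 0.389 and 0.287 for higher). The median difference of the 10 variable members was 0.09 log2 units, beside 0.07 for all variable probe sets of the array. Over all 47 members it was -6.28e-06, beside 2.80e-05 for all probe sets.

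No member passed limma, which weighs a difference against the spread between rats of a group (0 of 47 at an adjusted p under 0.05, against 0% of all 31042 probe sets). The lowest adjusted p of a member was 0.927, and it was 0.429 after quantile normalization and 0.254 with median-centered arrays. At an unadjusted p under 0.05 there was 1 member, a probe set of Tap1 that differed by -0.000215 log2 units, and 915 of all probe sets (2.95%). The groups overlapped in all 10 variable members, whereas they did not overlap in 6 of 2904 variable probe sets (0.207%). Rank products does not divide a difference by the spread of a probe set, and none of the 47 was called when only the 2904 variable probe sets were ranked.

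The calls rested largely on P5. Without P5, the differences of RT1-T24-3, RT1-T24-4, RT1-N2, RT1-A and RT1-CE16 were 0.28, 0.15, 0.07, 0.11 and -0.17 log2 units, and RT1-T24-3 alone was called. RT1-T24-3 was called in all 10 sets with 1 rat left out, and RT1-T24-4 and RT1-A in all but that without P5. RT1-N2 also lost its call without C1, C2, C3 or C4, and RT1-CE16 without P1 or P3. The difference of RT1-A was 0.38 without P4, and that of RT1-CE16 was -0.57 without C5 and -0.58 without P4. RT1-Bb was called lower without C2 or C5, and differed by 0.02 without P5, and RT1-S3 was called lower without C5. Without C1, B2m, Psme1 and Psme2 differed by 0.04, 0.02 and 0.00333.

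**Figure D4:**
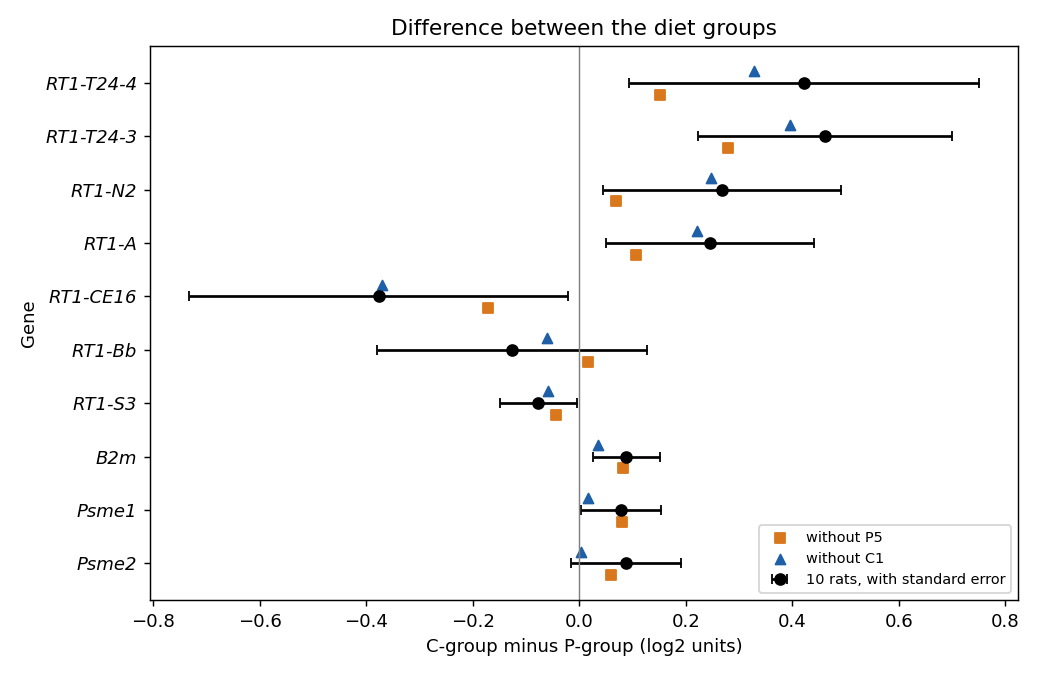
Difference of the group means, C-group minus P-group, in log2 units for the 10 variable members. Black points are all 10 rats with the standard error from limma, orange squares are without P5 and blue triangles without C1. The 5 probe sets called by rank products lie closer to 0 without P5, and B2m, Psme1 and Psme2 lie closer to 0 without C1.

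A list of other antigen presentation genes, which also held class I-like genes such as Fcgrt and Hfe, had 18 measured genes with 28 probe sets. Of these genes, 4 had a variable probe set. This was 14.3% of the probe sets, against 9.36% on the whole array, and rank products called 2 of the 28 higher (7.14%, against 2.01%) and 1 lower (3.57%, against 0.409%). Canx, which encodes the chaperone calnexin, differed by 0.20 log2 units (standard error 0.14) and Erap1, the peptidase that trims class I peptides, by 0.21 (standard error 0.14), and both were called higher by rank products. Nfya, a subunit of the factor that binds the Y box, differed by -0.13 (standard error 0.09) and was called lower. Pdia3, a member of the class I loading complex, was not called at 0.09 (standard error 0.09). C1 was the highest rat of Canx, Erap1 and Pdia3, at 9.49, 8.27 and 10.90, and the lowest of Nfya, at 6.93. These differences were not computed again without C1. The median difference of the 28 probe sets was 9.80e-05, and none passed limma.

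Of the constitutive subunits that the immunoproteasome subunits replace, 2 were measured, and Psmb7 alone was variable. Psmb7 was 9.34 in C1 and 10.23 to 10.58 in the other 9 rats, so C1 was its lowest rat and the highest of Psme1 and Psme2. Of 19 measured interferon response genes, 2 had a variable probe set, Mx1 and Ifitm3 (8.70% of 23 probe sets, against 9.36% on the whole array). Mx1, an interferon-induced antiviral gene, was 8.04, 7.44, 6.20, 6.28 and 6.41 in C1 to C5 and 7.39, 6.31, 6.33, 7.27 and 7.41 in P1 to P5. Of its high rats, C1, C2, P1, P4 and P5, only P1 and P5 belonged to the set C5, P1, P3 and P5. Mx1 differed by -0.07 (standard error 0.43) and was called lower, as 1 of the 23 probe sets (4.35%, against 0.409%). Its groups overlapped. Ifitm3 was not called at 0.14 (standard error 0.11).

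Genes that lie beside the RT1 genes on chromosome 20 were also examined. Between the first and the last RT1 gene in the RefSeq order, 116 probe sets belonged to genes that are not members, and 5 of them were variable (4.31%, against 9.36% on the whole array), those of Gabbr1, Mog, Ddx39b, Prrc2a and Csnk2b. None of these 5 had C5, P1, P3 and P5 as its 4 highest or lowest rats. At the share of 0.758% among variable probe sets of the array, so few probe sets could hardly show it. Gabbr1, a GABA-B receptor subunit gene, was lowest in P5 at 7.14 against 7.74 to 8.58 in the others. A list of 52 measured neighbors of the complex, with 66 probe sets, held 2 variable ones (3.03%), Pfdn6 and Ddx39b. Pfdn6, which encodes a subunit of the prefoldin chaperone, was 9.86, 9.73, 9.71, 9.85 and 9.63 in the C-group and 9.51, 9.70, 9.55, 9.75 and 9.22 in the P-group. Its 4 lowest rats were P5, P1, P3 and C5. It differed by 0.21 log2 units (standard error 0.10) and was called higher by rank products (FDR 0.0169), as 1 of the 66 probe sets (1.52%, against 2.01%).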

How the data were processed

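Hippocampal RNA of 5 rats of the C-group and 5 of the P-group was measured on Affymetrix GeneChip rat genome arrays. The deposited log2 values came from qFARMS, with which the authors normalized between arrays by quantiles and summarized the probes, and were used unchanged after 57 control probe sets had been left out of 31099. Arrays give no read depth, and their number limits the precision. Probe sets were named from the platform annotation. The gene identifiers of 46 of the 47 members were found in the RefSeq table of GRCr8, with the same symbols, and RT1-A kept the annotation's name. The genome build behind the annotation is not given in the sources used here. No columns were identical. The p-values of limma weigh a difference against the spread between the rats that the labels number. The FDR of rank products comes from permutations within arrays and does not use that spread.

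Rank products was run in Python 3.11.15 (numpy 2.4.6, pandas 2.3.3) from the 25 differences between groups, without pairing, with 100 permutations within arrays and an FDR threshold of 0.05 in each direction. limma 3.58.1 in R 4.3.3 (lmFit, eBayes, Benjamini-Hochberg adjustment over all 31042 probe sets) gave standard errors and adjusted p-values. Both were tested on simulated data with known shifts and independent noise in each probe set. Such data hold no rat that deviates in many probe sets, so they do not check the calls reported here. The alternatives changed the pairing, filters, normalization, variance model, thresholds, random draw (chosen after seeing the data) and rats used. Every member with a variable probe set is named with its values. Examples of other lists were to be those with the smallest limma p, but their variable genes are named instead, chosen after their values were seen. Scanner files were not used here. The members and lists were chosen with earlier results of these data known. The study does not state the pairing or the number of permutations.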

Additional observations from a re-analysis of the deposited data

Results flagged for a closer look

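In RT1-S3, rat C5 had a log2 value of 7.14, and the next highest rat of the C-group was at 6.89, so that C5 lay far from the other 4 rats of its group. It was the only such rat in the 20 groups of 5 rats examined over the 10 variable members, and chance marks about 1 in 20 groups.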

How the results depend on the processing

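The counts of members called by rank products, 4 higher and 1 lower in the C-group, were 0 and 0 when only probe sets with an SD above 0.01 were ranked, and 2 and 0 when only probe sets with a mean above the median were, a filter that removed RT1-A, RT1-N2 and RT1-CE16 from the ranking. With 1 rat left out they ranged from 1 to 4 for higher and from 0 to 3 for lower, with 1 higher without P5, 0 lower without P1, P3 or P5, and 3 lower without C5. Quantile normalization, median-centering and another random draw, chosen after seeing the data, left both counts as they were. With the replicate number as a block the counts were 4 higher and 2 lower, the second being RT1-Bb. The labels do not state whether the replicate numbers pair the rats. Deviations of rats with the same number correlated at 0.277, -0.0112, -0.389, 0.485 and 0.451. Of the 10 rats, 5 correlated best with the rat of their own number in the other group. limma called 0 members under each alternative run, with a lowest adjusted p of a member between 0.254 (median-centered arrays) and 0.999 (without C1). The count of variable members was 10 at SD thresholds of 0.05 and 0.1 and 14 after quantile normalization.

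The count of members with 2 levels, 0, became 1 when a single rat could form a side (RT1-N2) and 1 when the gap had to exceed the mean of both ranges (RT1-CE16), and ranged from 0 to 2 with 1 rat left out. The median difference of the variable members ranged from 0.03 to 0.12 with 1 rat left out. A difference changed sign in Psme2, at -0.0534 between group medians, and in RT1-Bb, which ranged from -0.26 to 0.0171 (without P5) with 1 rat left out. Constant probe sets limit the statements on 20 genes, and 5 rats a group limit the precision.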
